A study of Mus musculus with 10 samples.

Results

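The mRNAs described here encode the enzymes that remove superoxide and peroxides directly, which are the superoxide dismutases Sod1 and Sod2, catalase (Cat), the glutathione peroxidases Gpx1 and Gpx4, and the peroxiredoxins Prdx1, Prdx2, Prdx3, Prdx5 and Prdx6. The 10 members were taken by gene symbol from a table of 26335 rows, and all 10 were among the 12306 genes with enough signal to be tested. Sod2, Prdx3 and Prdx5, whose proteins act in mitochondria, were treated apart from the other 7. RNA sequencing was performed on cultured mouse small cell lung cancer cells (mSCLC-2405), with 5 control libraries from cells given the solvent DMSO and 5 libraries from cells given 250 µM stiripentol, both for 48 h. Stiripentol is an antiseizure drug, and the study asked how it acts on complex I, where electrons enter the respiratory chain. The line came from the primary lung tumour of a mouse in which Rb1 and Trp53 had been deleted by an adenovirus carrying Cre recombinase, so all 10 libraries share that origin and rest on 1 line.

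Superoxide forms when electrons leak onto oxygen, and complex I is one of the places where this happens. Superoxide dismutases turn superoxide into hydrogen peroxide, SOD2 in the mitochondrial matrix and SOD1 mainly in the cytosol. Hydrogen peroxide is then reduced to water, by catalase in peroxisomes, by glutathione peroxidases with electrons from glutathione, and by peroxiredoxins, most of which take electrons from thioredoxin.

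The deposited values were log2 CPM, that is, each gene’s reads relative to all reads of that library (CPM), on a log2 scale, and whole read counts could be recovered from 100% of them. Control libraries held 22375625 to 65299372 reads and stiripentol libraries 55015760 to 60670901, and each member was covered by at least 1414 reads in every library. Both groups divided into 2 clusters of libraries, controls 1 to 3 and controls 4 and 5 in the one and stiripentol 3 to 5 and stiripentol 1 and 2 in the other. Across genes the correlation was 0.983 to 0.997 within a cluster and 0.920 to 0.939 between the clusters of a group. The value of a gene without reads was -4.82 in controls 1 to 3 and -4.74 in the other 7 libraries, so that controls 1 to 3 and the rest had been normalized as 2 sets. Nothing in the labels says what separates the clusters or that libraries came from separate cultures, so the p-values measure only the spread between these libraries, which may be technical. Of the neuroendocrine markers of small cell lung cancer, Ncam1 carried nearly all reads, and reads of Rb1 and Trp53 were present in all libraries, with a summed level of 7.27 to 12.6 CPM in control and 8.46 to 24.6 CPM in stiripentol. Summed levels of 6 fibroblast markers were 317 to 511 CPM in control and 106 to 129 CPM in stiripentol libraries, those of 4 non-neuroendocrine markers 317 to 480 and 148 to 326 CPM, and those of 3 leukocyte markers 4.27 to 18.4 and 55.3 to 103 CPM, nearly all of the last from Cd68. Of the fibroblast markers, Col1a2, Col3a1 and Pdgfra were lower, whereas Col1a1 and Dcn were not called (limma adjusted p = 0.529 and 0.557) and had 0.86 and -2.63, and -2.00 and 1.76, between the clusters of 3 and of 2. The share of reads in genes of the mitochondrial chromosome was 0.824 to 1.63% in control and 0.615 to 0.903% in stiripentol libraries. The part of these differences in the results on the enzymes was not tested. Fewer cells that express a gene and less of its RNA per cell cannot be told apart in such libraries.

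The sequences before the start sites of 5 members are shown because the results turn on these genes, and because 3 short motifs known from promoters of stress and housekeeping genes were searched in them. They are from RefSeq in the build GRCm38.p6, in which 9 of the 10 members were matched, Prdx6 being the exception, and each is the run of the 250 bases before a start that lies outside annotated exons. The run of Sod2 is chr17:13007589-13007816 on the plus strand, that of Gpx4 is chr10:80053315-80053487 on the plus strand, before 1 of its 4 start sites listed, and that of Sod1 is chr16:90220512-90220753 on the plus strand. Those of Cat and Prdx1 are chr2:103485161-103485403 on the minus strand and chr4:116685349-116685543 on the plus strand. Capitals mark matches, on either strand, to TGACNNNGC (the core of the antioxidant response element), GGGCGG (the GC box) or CCAAT, and matches to the GC box overlap each other in Sod1.
Sod2: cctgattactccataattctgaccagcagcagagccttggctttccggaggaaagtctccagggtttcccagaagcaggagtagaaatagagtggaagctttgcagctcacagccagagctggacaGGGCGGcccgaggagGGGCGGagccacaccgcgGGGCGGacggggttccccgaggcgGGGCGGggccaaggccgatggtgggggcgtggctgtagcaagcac
Gpx4: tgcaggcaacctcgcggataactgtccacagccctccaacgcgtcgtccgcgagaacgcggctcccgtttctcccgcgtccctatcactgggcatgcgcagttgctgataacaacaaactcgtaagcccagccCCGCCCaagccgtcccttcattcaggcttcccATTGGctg
Sod1: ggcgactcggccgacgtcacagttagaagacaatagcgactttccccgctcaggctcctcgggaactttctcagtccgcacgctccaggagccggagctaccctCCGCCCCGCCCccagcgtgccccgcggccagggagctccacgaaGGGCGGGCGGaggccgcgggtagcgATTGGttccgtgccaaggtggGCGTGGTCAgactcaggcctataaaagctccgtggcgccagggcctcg
Cat: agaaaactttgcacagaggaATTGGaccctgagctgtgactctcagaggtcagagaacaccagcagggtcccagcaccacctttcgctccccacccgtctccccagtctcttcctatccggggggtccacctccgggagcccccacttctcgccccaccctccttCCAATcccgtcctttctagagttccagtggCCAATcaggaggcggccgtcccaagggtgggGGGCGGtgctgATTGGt
Prdx1: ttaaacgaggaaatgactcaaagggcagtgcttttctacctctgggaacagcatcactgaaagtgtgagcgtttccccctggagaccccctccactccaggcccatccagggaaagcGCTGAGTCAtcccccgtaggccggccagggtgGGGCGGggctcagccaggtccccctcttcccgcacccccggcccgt
Over the 250 bases before all start sites listed, TGACNNNGC was present in Sod1 and Prdx1, 2 of the 9 members, and in 11.5% of 27025 genes. GGGCGG was found in 7 members and in 35.4% of genes, and CCAAT in 4 members (Sod2, Sod1, Cat and Gpx4) and in 37.5% of genes. The CCAAT of Sod2 lies in the 22 bases next to its start, which are annotated as exon and are not printed. A match is a description of the letters and not of a site that is bound.

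With all 10 libraries as replicates, 1 of the 10 enzymes passed the test. Gpx4 was higher with stiripentol by 0.46 on the log2 scale, a 1.38-fold difference, and none was lower (limma with a mean-variance trend, Benjamini-Hochberg adjusted p under 0.05 over all genes tested). Of the lower ones, 1 (Sod2) had an unadjusted p under 0.05, and with voom on the recovered reads none was called lower either. In the fit of the deposited values, 13.6% of all genes were called higher and 14.1% were called lower. The changes of the 10 enzymes were evenly divided, 5 above and 5 below 0, with a median of -0.02 where the median of all genes was -0.06. The median size of the change regardless of sign was 0.253 for the enzymes and 0.414 for all genes tested. The 3 mitochondrial enzymes had a median change of -0.21 and the other 7 a median of 0.04. The median of the 3 is the change of Sod2, none of the 3 was called, and the difference between the 2 medians was not tested. Summed over the 10 enzymes, the level was 1949 to 3052 CPM in control libraries (median 2071) and 2187 to 2637 CPM in stiripentol libraries (median 2365), and the ranges overlapped. The plot of the members by library shows where each of these values comes from.

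**Figure D1:**
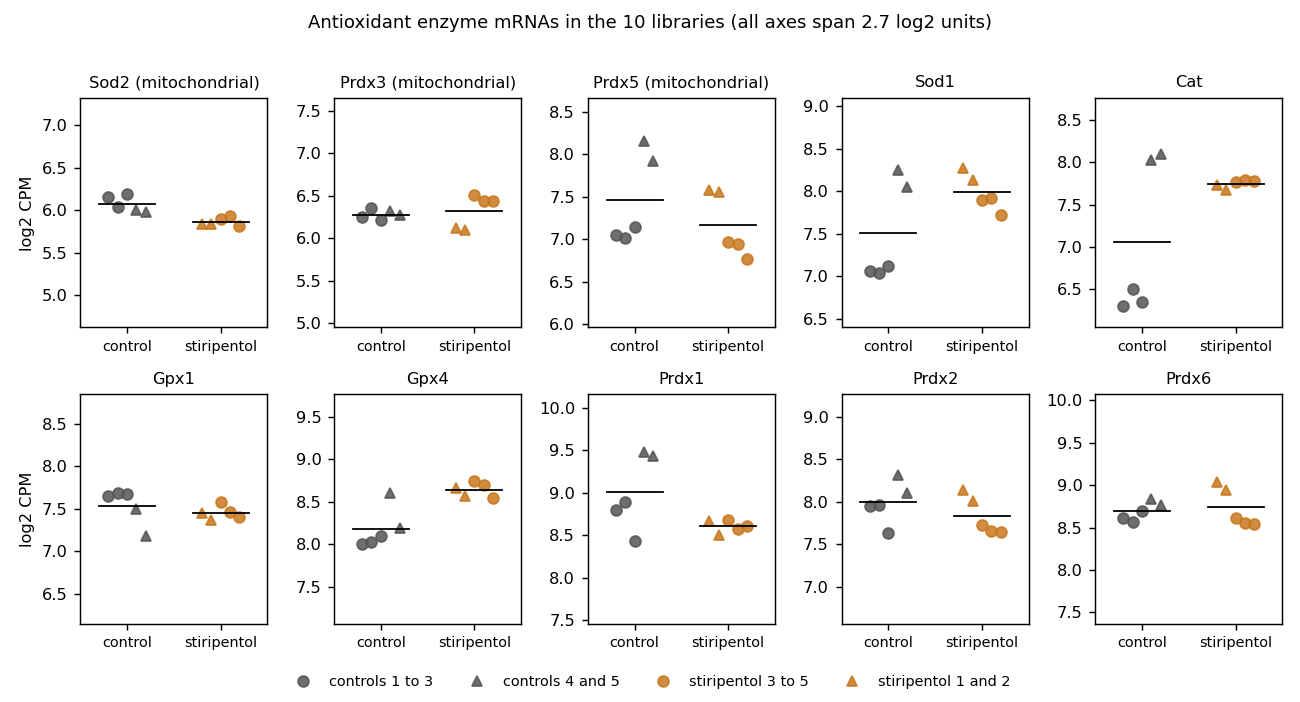
Level of each of the 10 enzyme mRNAs (log2 CPM, all axes with the same span) in the 5 control (grey) and 5 stiripentol (orange) libraries. Circles and triangles mark the 2 clusters of libraries in each group and lines mark group means. The control clusters overlapped only in Prdx3 and lay furthest apart in Cat, Sod1 and Prdx5, whereas the stiripentol libraries of Cat lay within 7.68 to 7.79.

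Among the mitochondrial enzymes, Sod2 was the only one whose groups did not overlap. Sod2 (GRCm38 chr17:13006846-13040063, plus strand) encodes the manganese superoxide dismutase of the matrix. Its level was 6.15, 6.04, 6.19, 6.01 and 5.98 log2 CPM in controls 1 to 5 and 5.84, 5.83, 5.90, 5.93 and 5.82 log2 CPM in stiripentol libraries 1 to 5. All 5 stiripentol libraries lay below all 5 controls, which 14.3% of all genes tested also showed. The difference was -0.21 on the log2 scale with a standard error of 0.09, a level 0.863 times that of the control. The two-sided exact permutation p was 0.00794, the smallest that 5 libraries against 5 allow over 252 arrangements. It follows from the groups not overlapping, and the 13.0% of genes with all stiripentol libraries above all controls share it. Adjusted over all genes the limma p was 0.0961, so that Sod2 did not pass. With a term for the cluster of libraries in the fit, the standard error was 0.06 and the limma adjusted p was 0.0189. That term matched the clusters of the 2 groups by their number of libraries alone, and no label says that matched clusters share a batch. In that fit, 27.1% of all genes were called lower and 23.6% were called higher, and of the 10 enzymes 2 were called lower (Sod2 and Prdx5) and 2 higher (Gpx4 and Sod1).

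Prdx3 (chr19:60864051-60874556, minus strand) encodes the peroxiredoxin of the matrix, which is reduced by mitochondrial thioredoxin. Its level was 6.24, 6.35, 6.21, 6.32 and 6.27 log2 CPM in controls 1 to 5. In stiripentol libraries 1 to 5 it was 6.12, 6.09, 6.50, 6.44 and 6.44 log2 CPM. The controls lay close together, stiripentol 1 and 2 lay below all of them and stiripentol 3 to 5 above all of them. The difference of the means was 0.04 with a standard error of 0.11 (limma adjusted p = 0.805). It was 0.19 between the clusters of 3 and -0.19 between the clusters of 2.

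Prdx5 (chr19:6906697-6910106, minus strand) encodes a peroxiredoxin found in mitochondria and also in peroxisomes and the cytosol. Its level was 7.06, 7.01, 7.14, 8.15 and 7.92 log2 CPM in controls 1 to 5 and 7.59, 7.56, 6.96, 6.95 and 6.77 log2 CPM in stiripentol libraries 1 to 5. Controls 4 and 5 were the 2 highest of the 10 libraries, stiripentol 1 and 2 came next, and the groups overlapped. The difference of -0.29 had a standard error of 0.26 (limma adjusted p = 0.418). With the cluster term the standard error was 0.08 and the limma adjusted p was 0.0155, but the difference depended on which clusters were set against each other, from -1.14 between controls 4 and 5 and stiripentol 3 to 5 to 0.50 between controls 1 to 3 and stiripentol 1 and 2. Prdx5 overlaps Trmt112 on the other strand by 409 bases, and the sources used here do not state whether reads were counted by strand.

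Gpx4 (chr10:80047166-80056439, plus strand) encodes the selenoenzyme that reduces lipid hydroperoxides within membranes and restrains ferroptosis. Its level was 8.00, 8.03, 8.10, 8.60 and 8.20 log2 CPM in controls 1 to 5 and 8.67, 8.57, 8.75, 8.70 and 8.54 log2 CPM in stiripentol libraries 1 to 5. Control 4 reached into the stiripentol range, and 3 of the 5 stiripentol libraries exceeded every control. The rise of 0.46 had a standard error of 0.12 (limma adjusted p = 0.0193, two-sided exact permutation p = 0.0238). It was 0.62 between the clusters of 3 and 0.22 between the clusters of 2, and the call was lost in 4 of 28 alternatives. These were the clusters of 2 (limma adjusted p = 0.146), controls 4 and 5 against stiripentol 3 to 5 (0.27, limma adjusted p = 0.0631), the 7 libraries of 1 normalization set (0.25, limma adjusted p = 0.220) and 1 mean per group and cluster (0.42, limma adjusted p = 0.670). A near-identical copy, Gpx4-ps2, shares 99.7% of 762 bases with Gpx4 and held 9.45% of the reads of both in control and 8.67% in stiripentol libraries. With the reads of such copies added to the members, the rise was 0.45 (limma adjusted p = 0.0201). The copies of Prdx1, Prdx2 and Sod1 in the table each held at most 0.284% of the reads of copy and member.

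Gpx1 (chr9:108338903-108340343, plus strand) encodes the abundant glutathione peroxidase of cytosol and mitochondria, a selenoenzyme that acts on soluble hydrogen peroxide. Its level was 7.65, 7.69, 7.68, 7.50 and 7.18 log2 CPM in controls 1 to 5 and 7.46, 7.37, 7.57, 7.47 and 7.41 log2 CPM in stiripentol libraries 1 to 5. The stiripentol libraries lay inside the control range. The difference was -0.08 with a standard error of 0.11 (limma adjusted p = 0.590). It was -0.19 between the clusters of 3 and 0.07 between the clusters of 2.

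Sod1 (chr16:90220754-90226329, plus strand) encodes the copper and zinc superoxide dismutase. Its level was 7.06, 7.04, 7.12, 8.25 and 8.05 log2 CPM in controls 1 to 5 and 8.27, 8.13, 7.89, 7.92 and 7.72 log2 CPM in stiripentol libraries 1 to 5. Controls 1 to 3 stood below all other libraries, while controls 4 and 5 lay among the stiripentol libraries. The difference of 0.48 had a standard error of 0.25 (limma adjusted p = 0.171). With the cluster term the standard error was 0.13 and the limma adjusted p was 0.0131. Sod1 overlaps Scaf4 on the other strand by 650 bases. Between clusters, however, the difference was 0.77 for the clusters of 3, 0.05 for the clusters of 2 and -0.31 from controls 4 and 5 to stiripentol 3 to 5.

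Cat (chr2:103453849-103485160, minus strand) encodes catalase, the haem enzyme of peroxisomes. Its level was 6.31, 6.51, 6.36, 8.02 and 8.10 log2 CPM in controls 1 to 5. In stiripentol libraries 1 to 5 it was 7.73, 7.68, 7.76, 7.79 and 7.78 log2 CPM. The stiripentol libraries lay between the 2 clusters of controls, above controls 1 to 3 and below controls 4 and 5. The controls had a mean of 7.06 ± 0.92 (SD, n = 5) and the stiripentol libraries 7.75 ± 0.04 (SD, n = 5). The difference of 0.69 had a standard error of 0.36 (limma adjusted p = 0.172). Between the clusters of 3 the difference was 1.38 (limma adjusted p = 5.83e-06 in a fit of those libraries). Between the clusters of 2 it was -0.36 (limma adjusted p = 0.00603), so that the direction of Cat depended on the controls used. Of the 12306 genes tested, 4637 were called higher in the first of these fits and 5726 lower in the second. The clusters were found in the same libraries, which makes the spread within them small, so the 2 p-values give no separate support.

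The cytosolic peroxiredoxins Prdx1 (chr4:116685544-116700822, plus strand) and Prdx2 (chr8:84969587-84974834, plus strand) are reduced by thioredoxin. The level of Prdx1 was 8.80, 8.90, 8.43, 9.48 and 9.44 log2 CPM in controls 1 to 5 and 8.67, 8.51, 8.68, 8.57 and 8.61 log2 CPM in stiripentol libraries 1 to 5. Only control 3 lay below the stiripentol libraries, and controls 4 and 5 stood apart at the top. The difference of -0.40 had a standard error of 0.19 (limma adjusted p = 0.129), and without control 3 it was -0.55 (limma adjusted p = 0.0374). It was -0.09 between the clusters of 3 and -0.87 between the clusters of 2. Prdx1 was thus negative in all 4 ways of setting a stiripentol cluster against a control cluster, as was Sod2, and Gpx4 was positive in all 4. The other 7 enzymes were each positive in some and negative in others, as the plot of changes between clusters shows. The 4 differences come from only 4 cluster means, and the share of all genes with 1 sign in all 4 was not computed. For Sod2 the sign follows from its groups not overlapping.

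The level of Prdx2 was 7.95, 7.96, 7.63, 8.32 and 8.10 log2 CPM in controls 1 to 5 and 8.14, 8.00, 7.73, 7.65 and 7.64 log2 CPM in stiripentol libraries 1 to 5, with overlapping groups. The difference of -0.16 had a standard error of 0.15 (limma adjusted p = 0.435). Prdx2 overlaps Junb on the other strand by 351 bases, and Junb, which encodes a subunit of the transcription factor AP-1, held 90353 reads in all control and 42854 reads in all stiripentol libraries. Prdx6 (chr1:161240112-161251219, minus strand) encodes the peroxiredoxin that uses glutathione and also has phospholipase activity. Its level was 8.61, 8.57, 8.70, 8.84 and 8.77 log2 CPM in controls 1 to 5 and 9.04, 8.94, 8.62, 8.56 and 8.54 log2 CPM in stiripentol libraries 1 to 5. Stiripentol 1 and 2 lay above all controls and the other 3 stiripentol libraries inside or below the control range. The difference of 0.04 had a standard error of 0.12 (limma adjusted p = 0.816).

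**Figure D2:**
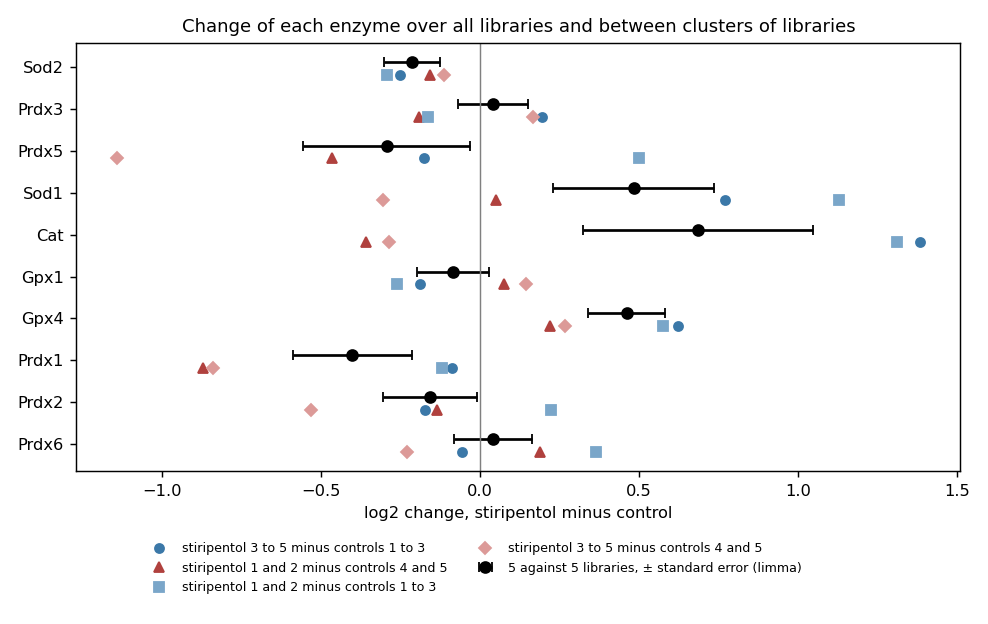
Log2 change of each enzyme, stiripentol minus control, over all 10 libraries (black, with the standard error from limma) and between single clusters of libraries (coloured marks). All 4 cluster differences were below 0 for Sod2 and Prdx1 and above 0 for Gpx4, whereas those of Cat ran from -0.36 to 1.38.

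The clusters of control libraries differed in most of the enzymes. Controls 4 and 5 were both above controls 1 to 3 in 7 of the 10 enzymes, which 36.8% of all genes tested also showed. They were both below controls 1 to 3 in Sod2 and Gpx1, a pattern seen in 34.1% of all genes, and Prdx3 overlapped. The difference between the control clusters was 1.67 for Cat (3.19-fold), 1.08 for Sod1 (2.11-fold), 0.97 for Prdx5 and 0.75 for Prdx1 (1.68-fold). In 7 of the 10 enzymes it was larger, regardless of sign, than the change with stiripentol over all libraries, against 49.4% of all genes. The median size of the control difference was 0.357 for the enzymes and 0.400 for all genes, and that of the difference between the stiripentol clusters was 0.214 and 0.545. The enzymes therefore lay near the other genes in the first and below them in the second. No test was made between the clusters of a group, since the clusters were found in the same libraries.

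**Figure D3:**
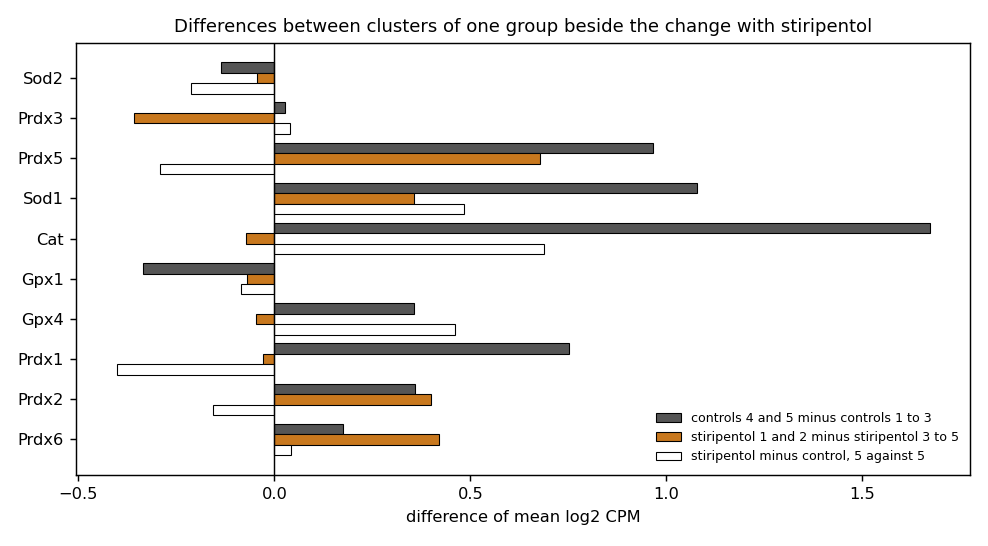
Difference between the 2 clusters of control libraries (grey) and of stiripentol libraries (orange), beside the change with stiripentol over all libraries (white), for each enzyme in log2 CPM. The control clusters differed by 1.67 in Cat and by 1.08 in Sod1, more than the changes of 0.69 and 0.48 with stiripentol.

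Differences between 2 enzymes within a library are free of the scaling of that library, although they also depend on transcript length and only their shift between groups can be read. The following pairs are described after their values had been seen and were not tested. Gpx4 minus Gpx1 was 0.34 to 1.11 in control and 1.14 to 1.23 in stiripentol libraries, without overlap. Cat minus Prdx1 was -2.48 to -1.34 in control and -0.94 to -0.78 in stiripentol libraries, also without overlap. In both pairs controls 4 and 5 were the controls nearest to the stiripentol libraries. Sod2 minus Sod1, the matrix against the mainly cytosolic dismutase, was -2.24 to -0.91 in control and -2.44 to -1.90 in stiripentol libraries, and those ranges overlapped. Prdx3 minus Prdx2 was -2.00 to -1.42 in control and -2.02 to -1.20 in stiripentol libraries. On the level of single genes, 13.0% of all genes had every stiripentol library above every control, and none of the 10 enzymes did. That share does not apply to differences between 2 genes, for which none was computed.

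**Figure D4:**
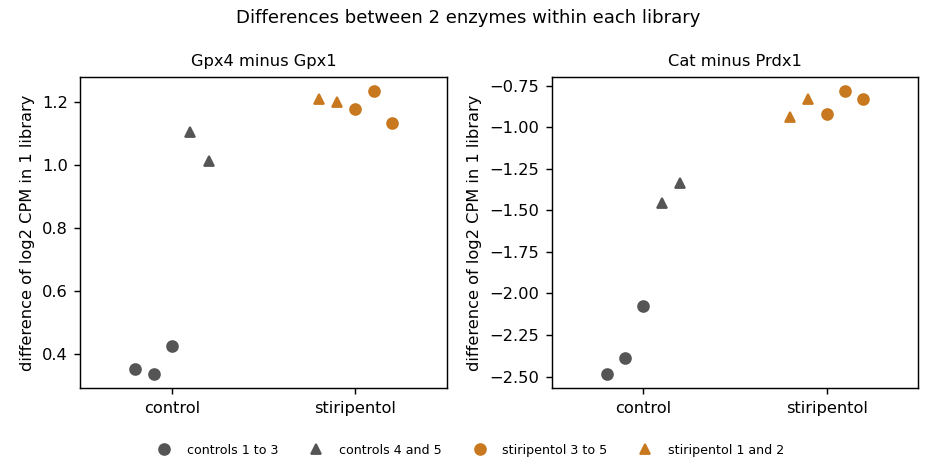
Difference in log2 CPM between Gpx4 and Gpx1 and between Cat and Prdx1 within each of the 10 libraries, with circles and triangles for the clusters of libraries. The stiripentol libraries lay at 1.14 to 1.23 and at -0.94 to -0.78, above all controls in both.

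The enzymes did not share 1 pattern over the 10 libraries. The highest Pearson correlation between members was that of Sod1 and Cat, with 0.935, followed by Prdx5 and Prdx2 with 0.866 and Sod1 and Gpx4 with 0.808. The lowest was that of Cat and Gpx1 with -0.805, and Prdx3 and Prdx6 had -0.797. These points share their libraries and clusters, so the correlations describe the clusters as much as the treatment. Among all genes tested, the gene most like Sod1 was Itm2b (0.993), that most like Cat was Ifi27 (0.993) and that most like Prdx5 was Fbxl8 (0.991). For Sod2 it was Agfg2 (0.959), for Prdx3 Panx1 (0.974), for Prdx1 Crip1 (0.981), for Prdx2 Thoc7 (0.948) and for Prdx6 Mfge8 (0.986). For Gpx4 and Gpx1 the most alike were Gm10252 (0.982) and Gm6793 (0.921).

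Of 8 other enzymes of the same 4 families, 5 had a row and 3 were tested, of which 2 were lower with stiripentol and none was higher. Sod3, the dismutase secreted into the extracellular space, was 2.65 to 3.55 log2 CPM in control and 1.27 to 1.86 log2 CPM in stiripentol libraries and fell by 1.44 (standard error 0.22, limma adjusted p = 0.00160). Gpx8, a peroxidase of the endoplasmic reticulum, was 4.95 to 5.64 in control and 4.41 to 4.74 log2 CPM in stiripentol libraries and fell by 0.64 (standard error 0.16, limma adjusted p = 0.0153). The groups did not overlap in either gene. Of all genes tested, 14.3% had every stiripentol library below every control and 14.1% were called lower, and a list of 3 is too short to set against these shares. Prdx4, the peroxiredoxin of the endoplasmic reticulum, had a change of -0.18 (limma adjusted p = 0.231). Gpx3 and Gpx7 were too low to be tested, and Gpx2, Gpx5 and Gpx6 were not analysed here.

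A list of 14 genes held the thioredoxin and glutaredoxin systems, which pass electrons to peroxiredoxins and other proteins, together with the thioredoxin-binding Txnip, the sulfiredoxin Srxn1 and 3 sestrins. Of these, 3 were lower and 1 was higher, with a median change of -0.07. The one that rose was Txn2, the mitochondrial thioredoxin that reduces PRDX3, with 6.32 to 7.05 log2 CPM in control and 7.33 to 7.46 log2 CPM in stiripentol libraries, a rise of 0.66 (standard error 0.14, limma adjusted p = 0.00754). It rose by 0.46 between the clusters of 3 and by 0.96 between the clusters of 2. Glrx, the cytosolic glutaredoxin, fell by 0.97 (limma adjusted p = 0.0145), with -1.46 between the clusters of 3 and -0.25 between the clusters of 2. Txnrd3, a thioredoxin reductase, fell by 0.90 (limma adjusted p = 0.0332), with -0.64 and -1.28 in the same pairs. Sesn1, a sestrin induced by p53, fell by 0.65 (limma adjusted p = 0.00691), with -0.56 and -0.78. The cytosolic thioredoxin Txn1 and its reductase Txnrd1 were not called (limma adjusted p = 0.949 and 0.995).

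Among 9 tested genes of glutathione supply and reduction, 2 were higher and none was lower, with a median change of 0.35. Slc3a2, the heavy chain shared by the cystine transporter and by several other amino acid transporters, was 8.15 to 8.55 log2 CPM in control and 10.8 to 11.6 log2 CPM in stiripentol libraries. It rose by 2.84 (standard error 0.18, limma adjusted p = 1.67e-05), while Slc7a11, the light chain of the cystine transporter, had a change of -0.10 (limma adjusted p = 0.917). Slc25a39, which carries glutathione into mitochondria, was 8.04 to 8.22 log2 CPM in control and 8.86 to 9.03 log2 CPM in stiripentol libraries. It rose by 0.80 (standard error 0.08, limma adjusted p = 0.000181), with 0.79 between the clusters of 3 and 0.80 between the clusters of 2.

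Among 7 genes of selenoprotein synthesis, which glutathione peroxidases need, Pstk rose by 0.42 (limma adjusted p = 0.0357), with 0.28 between the clusters of 3 and 0.65 between the clusters of 2, and the median change was -0.16. None of 3 genes of copper delivery was called, with no unadjusted limma p under 0.05. Of 7 peroxisome genes, Pex3 rose by 0.66 (limma adjusted p = 0.00199) and Pex14 by 0.67 (limma adjusted p = 0.00359), and the median was 0.17. Pex3 had 0.60 between the clusters of 3 and 0.75 between the clusters of 2, and Pex14 had 0.43 and 1.04. Both encode peroxins, of which PEX14 serves the import of matrix proteins such as catalase. Of 7 regulators, Nfe2l1, a transcription factor of the cap'n'collar family, rose by 0.66 (limma adjusted p = 0.00596), and Keap1, which holds NRF2 in check, fell by 0.61 (limma adjusted p = 0.0262). Foxo4, a forkhead factor, fell by 0.70 (limma adjusted p = 0.0266), and Nfe2l2, which encodes NRF2, had a change of -0.18 (limma adjusted p = 0.339). Between the clusters of 3 and of 2, the changes were -0.28 and -1.34 for Foxo4, -0.25 and -1.16 for Keap1, and 0.61 and 0.74 for Nfe2l1. Of 8 listed enzymes that make superoxide or hydrogen peroxide, 3 were tested and none was called, with no unadjusted limma p under 0.05. Over all 53 genes tested of these lists, 7 were lower (13.2%) and 7 were higher (13.2%), beside 14.1% and 13.6% of all genes tested.

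**Figure D5:**
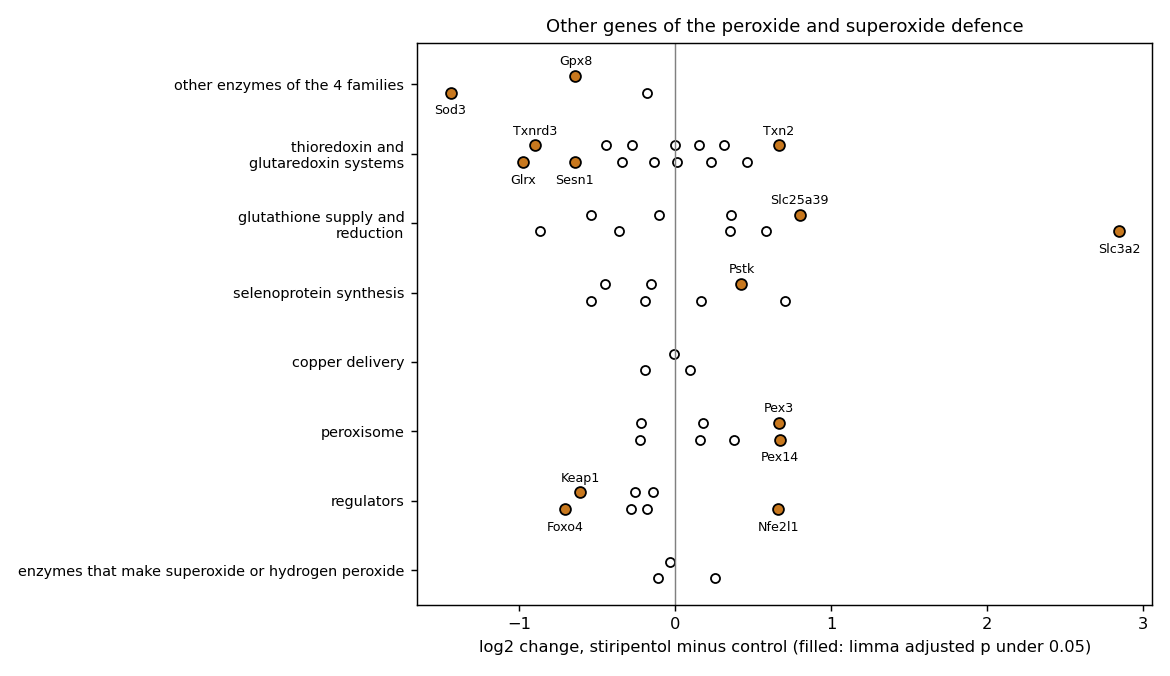
Log2 change, stiripentol minus control, of the 53 tested genes of the surrounding pathways, by list, with filled points for genes that passed the limma test over all genes. Slc3a2 stood at 2.84 and Sod3 at -1.44.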

How the data were processed

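RNA from mSCLC-2405 cells was analysed from 1 table that the authors deposited, with the log2 CPM of each gene in each of 5 control and 5 stiripentol libraries, to which a prior of 0.837 to 2.38 reads had been added before the logarithm. The study's methods name GENAVi for the normalization, the submitters' processing notes name the mouse build mm10, and the aligner and annotation are not given in the sources used here. The methods name 3′ mRNA libraries and the labels TruSeq total RNA libraries, so levels were not compared between genes. The authors also deposited group means, p-values, q-values and fold ratios per gene, which were not used. Whole reads were recovered from 100% of values within 0.1 read, and depth covers counting error only.

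Genes whose log2 CPM averaged above 0 (12306) entered a fit of the deposited values without covariates, made in R 4.3.3 with limma 3.58.1 (lmFit, eBayes with a mean-variance trend) and adjusted after Benjamini-Hochberg. The threshold for a call was an adjusted p under 0.05. Fold changes are on the scale of log2 CPM with that prior. The test was checked on simulated data. For single values, two-sided exact permutation tests were run in Python 3.11.15 with numpy 2.4.6, scipy 1.17.1 and pandas 2.3.3. The clusters came from average linkage on correlation distances between libraries, cut into 2 within each group. The cluster term matched them between groups by size alone. The members and gene lists were chosen with earlier results of these data known. The genes named are the 10 members, the called genes of each list up to the 3 largest rises and 3 largest falls, and the tested gene most like each member. Positions, overlaps and near-identical copies (blastn 2.17.0+, at least 95% identity over 300 bases, a length chosen after seeing matches) are from GENCODE M21 on GRCm38. After removal of group means, libraries with the same deposited number correlated at -0.24 to 0.0612, so these numbers were not taken to pair libraries. The paper numbers the controls otherwise, with a no-read value of -4.74 in its controls 1 and 2 and -4.82 in its controls 3 to 5. By that value, its controls 1 and 2 are the cluster of 2, as are stiripentol 1 and 2. Pairing by the paper's numbers was not tested, so whether libraries are paired is not known. Alternatives were each library left out, a replicate block, a cluster term, single clusters, cluster means, 1 normalization set, 2 other scalings, other filters and pseudocounts, voom on recovered reads, other variance settings and reads of copies added. The crossed clusters were added after seeing the data. The result of 1 marker gene is not reported here.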

Additional observations from a re-analysis of the deposited data

Results flagged for a closer look

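Cat and Prdx3 were separated in opposite directions in the 2 pairs of clusters. These are 2 of the 10 enzymes, and 19.8% of all genes tested showed the same, so the share among the enzymes was near the background. Cat changed by 1.38 on the log2 scale from controls 1 to 3 to stiripentol 3 to 5, with every stiripentol library above every control, and by -0.36 from controls 4 and 5 to stiripentol 1 and 2, with every stiripentol library below every control. Prdx3, the mitochondrial peroxiredoxin, had 0.19 and -0.19 in the same pairs, again without overlap in either. Gpx1 (-0.19 and 0.074) and Prdx6 (-0.056 and 0.19) also had opposite signs, with overlap in at least 1 pair, which makes 4 of 10 enzymes (40.0%) beside 37.0% of all genes. The difference between the pairs was not tested, because the clusters were found in the same libraries.

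Control 5 held 22375625 reads, far from the other 4 controls, which held 57991647 to 65299372. Among 22 groups of 5 examined for a library far from the others, it was the only one, and chance alone gives about 1 in 20. Without control 5, Gpx4 was higher by 0.46 (limma adjusted p = 0.0331).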

How the results depend on the processing

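Gpx4 was positive in all 28 alternatives to the main analysis, from 0.22 to 0.62, and was called in 24 of them, including each of the 10 that leave out 1 library (limma adjusted p 0.00294 to 0.0489). Its call was lost between the clusters of 2 (0.22, adjusted p = 0.146), between 2 controls and 3 stiripentol libraries of crossed clusters (0.27, adjusted p = 0.0631), within 1 normalization set (0.25, adjusted p = 0.220) and with 1 mean per group and cluster (0.42, adjusted p = 0.670). Sod2 was negative in all 28, from -0.29 to -0.11, and was called in 3. In the fits of the deposited values this sign follows from its groups not overlapping, so these settings are no separate support. The share of all genes with 1 sign in every setting was not computed.

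Leaving out 1 library gave 0 to 1 enzymes lower (Prdx1 without control 3) and 1 to 2 higher. Sod1 joined Gpx4 without control 4, with 0.67 and a limma adjusted p of 0.0471. Of all genes, 1171 to 1802 were called lower and 1218 to 1706 higher in these fits. The counts were 1276 and 1236 without control 3, and 1614 and 1706 without control 4. In the fits without 1 library, Prdx6 ranged from -0.033 (without stiripentol 1) to 0.092 and was -0.0092 without stiripentol 2. Prdx3 ranged there from -0.0064 (without stiripentol 3) to 0.097. With the cluster term, 2 enzymes were lower and 2 higher, beside 3336 and 2908 of all genes and 22 list genes. The clusters of 3 gave 2 lower and 4 higher, 3322 and 4637 of all genes and 38 list genes, and Prdx6 turned to -0.056. The clusters of 2 gave 3 lower and 0 higher (0 also with an unadjusted limma p under 0.05), 5726 and 3158 of all genes and 36 list genes, and Prdx3 turned to -0.19, Cat to -0.36 and Gpx1 to 0.074. In the crossed clusters, 3 controls against 2 stiripentol libraries gave 2 lower and 5 higher, 5564 and 3457 of all genes and 35 list genes, with Prdx3 at -0.16, Prdx5 at 0.50 and Prdx2 at 0.22. There, 2 controls against 3 gave 6 lower and 1 higher (Prdx3, 0.17, adjusted p = 0.0216), 3880 and 4610 of all genes and 41 list genes, with Sod1 at -0.31, Cat at -0.29, Gpx1 at 0.14 and Prdx6 at -0.23. Within 1 normalization set, 2 enzymes were lower (Cat, -0.32, and Prdx1, -0.85) and 0 higher (0 also unadjusted), beside 1215 and 1249 of all genes. Sod1 was there at -0.16, Gpx1 at 0.12 and Prdx6 at -0.063. With 1 mean per group and cluster, limma called 0 enzymes, 0 list genes and 0 genes in either direction, and 1116 genes and 0 enzymes had an unadjusted p under 0.05. The causes of these shifts were not tested.

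The deposited replicate number as a block gave 1062 lower and 1020 higher of all genes and changed no enzyme's call. Libraries with the same deposited number did not deviate together, but the paper numbers the controls otherwise, and a block by its numbers was not fitted. The 2 other scalings, other filters, pseudocounts, voom (1866 lower and 1759 higher of all genes), variance settings and reads of copies changed no enzyme's call. Quantile scaling moved the median change of all genes from -0.06 to 0.05.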

Other observations

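Some of the surrounding pathway genes had differences of opposite sign between the clusters of 3 and between the clusters of 2, as did many other genes. Of all 12306 genes tested, 37.0% had opposite signs, and 3346 were positive between the clusters of 3 and negative between the clusters of 2. Of 9 tested genes of glutathione supply and reduction, 4 had opposite signs (44.4%), all 4 in that direction. Of 14 genes of the thioredoxin and glutaredoxin list, 6 had opposite signs (42.9%). The shares were 28.6% of 7 regulators, 33.3% of 3 other enzymes of the 4 families, and 57.1% each of 7 selenoprotein synthesis and 7 peroxisome genes. They were 100% of 3 copper delivery genes and 66.7% of 3 enzymes that make superoxide or hydrogen peroxide. Such lists are too short to set against the share of all genes. The examples were chosen after their values were seen, and neither was called over all 10 libraries. Srxn1, which restores overoxidised peroxiredoxins, had 1.16 between the clusters of 3 and -2.08 between the clusters of 2, and Gclm, the modifier subunit of the enzyme that starts glutathione synthesis, had 1.29 and -1.05. By contrast G6pdx, which supplies NADPH, was negative in both, with -0.43 and -0.26. Over all genes tested the median difference was 0.08 between the clusters of 3 and -0.25 between the clusters of 2, and the differences between the pairs were not tested.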
